A study of Mus musculus with 8 samples.

Results

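The enzymes and chaperone that fold collagen and tie its fibrils together were followed in mouse osteoblast progenitors treated with LAMZ (locamidazole, an aminoindazole derivative). They were 10 genes chosen by symbol, namely Lox, Loxl1, Loxl2, Loxl3, Loxl4, Plod1, Plod2, Plod3, Serpinh1 and P4ha1, of 51822 gene symbols used in all. No cut on measured values was used, but earlier results of these data were known when the genes were chosen. All 10 were found in the files and passed the filter on low values. The cells were harvested on day 7 or day 14 from osteogenic medium with DMSO (the vehicle, called control) or LAMZ at 1 μmol·L−1, and each of the 4 groups had 2 libraries. The sample labels name the cells as MC3T3-E1, a clonal osteoblastic line, whereas the methods of the study name cultured calvarial cells. The medium of all 4 groups held 10% serum, β-glycerophosphate at 10 mM, dexamethasone at 10 nM and ascorbic acid, labelled as 50 mg mL−1, whereas the methods give the same figure in micrograms. Ascorbic acid is a cofactor of the prolyl and lysyl hydroxylases described here, so every library came from cells supplied with it. The labels do not say that the libraries of a group came from separate cultures, so the p values measure the spread between these libraries, which may be technical.

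Collagen chains are modified in the endoplasmic reticulum before they leave the cell. Prolyl 4-hydroxylases hydroxylate prolines, which stabilizes the triple helix, lysyl hydroxylases hydroxylate lysines that later serve as crosslink sites, and the chaperone HSP47 binds the folded helix. Outside the cell, lysyl oxidases oxidize lysine and hydroxylysine side chains, and the aldehydes formed join neighbouring collagen or elastin molecules. Bone collagen depends on each of these steps, and several of the genes, among them P4ha1, P4ha2, Plod2, Lox and Loxl2, are also known targets of the hypoxia-inducible factor.

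Each library was deposited as RPKM, that is, reads scaled to gene length and to the mapped reads of that library. From the spacing of the low values, the libraries were estimated to hold from 3463538 to 5832101 mapped reads, and a member gene had from 177 to 19697 reads in a library, so that counting error alone was at most 7.52%. Libraries of the same group correlated at 0.961 to 0.980 across genes. The 6 osteoblast markers (Runx2, Sp7, Alpl, Col1a1, Bglap and Ibsp) were above 0 in every library. The 10 macrophage markers were also present in the control libraries, in which their summed RPKM was 465 to 607 on day 7 and 1144 to 1173 on day 14. In the LAMZ libraries this sum was 6.96 to 8.98, and 5 to 7 of the 10 markers were at 0, with C1qa, C1qb, C1qc, Tyrobp and Ctss at 0 in all 4. The summed RPKM of 4 adipocyte markers was 18.9 to 91.2 in the control and 4.30 to 5.16 with LAMZ. All 10 macrophage markers were called lower with LAMZ on both days, beside 8.49% of all genes tested on day 7 and 16.0% on day 14. Of the 3 adipocyte markers tested, 1 (Lpl) was called lower on day 7 and 3 on day 14. The part of these differences in the results below was not tested. In such bulk samples, fewer cells of a type and less RNA per cell cannot be told apart.

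On day 7, 5 of the 10 genes were higher and 1 was lower with LAMZ than in the control. The higher genes were P4ha1, Plod1, Plod2, Loxl2 and Loxl4, the lower gene was Loxl1, and Lox, Loxl3, Plod3 and Serpinh1 did not pass the test. Of all 12514 genes tested, 4.35% were higher and 8.49% were lower on day 7. On day 14, 5 of the 10 genes were higher (P4ha1, Plod1, Serpinh1, Loxl2 and Loxl4) and 2 were lower (Loxl1 and Plod2), beside 6.96% higher and 16.0% lower among all genes tested. The median log2 fold change of the 10 genes was 0.35 on day 7 and 0.38 on day 14, whereas that of all genes was −0.080 and −0.15. The test was limma on log2(RPKM + 1) with Benjamini-Hochberg adjustment over all genes tested, called at an adjusted p under 0.05, and all log2 fold changes are on that scale. With every library rescaled to the same sum of RPKM, the median of all genes moved to −0.31 on day 7 and −0.43 on day 14. That of the 10 genes moved to 0.053 and 0.027. The members split into 3 higher and 3 lower on day 7, when 3592 of all genes were called and 8.69% of those were higher. On day 14 they split into 4 higher and 4 lower, when 5796 of all genes were called and 8.16% of those were higher. Rn7s1, the most abundant entry in every library, alone held 18.1% to 33.7% of the sum of RPKM. With the sum taken over protein-coding genes (a scaling chosen after seeing the data), 5 members were higher and 1 was lower on day 7 (median 0.30). On day 14, 4 were higher and 2 were lower (median 0.28). Of the 1972 and 3735 genes called on those days, 26.4% and 20.7% were higher. Without rescaling, the share of higher genes among all called genes was 33.9% on day 7 and 30.3% on day 14. It ranged from 8.69% to 53.5% and from 8.16% to 56.3% over the other scalings.

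**Figure D1:**
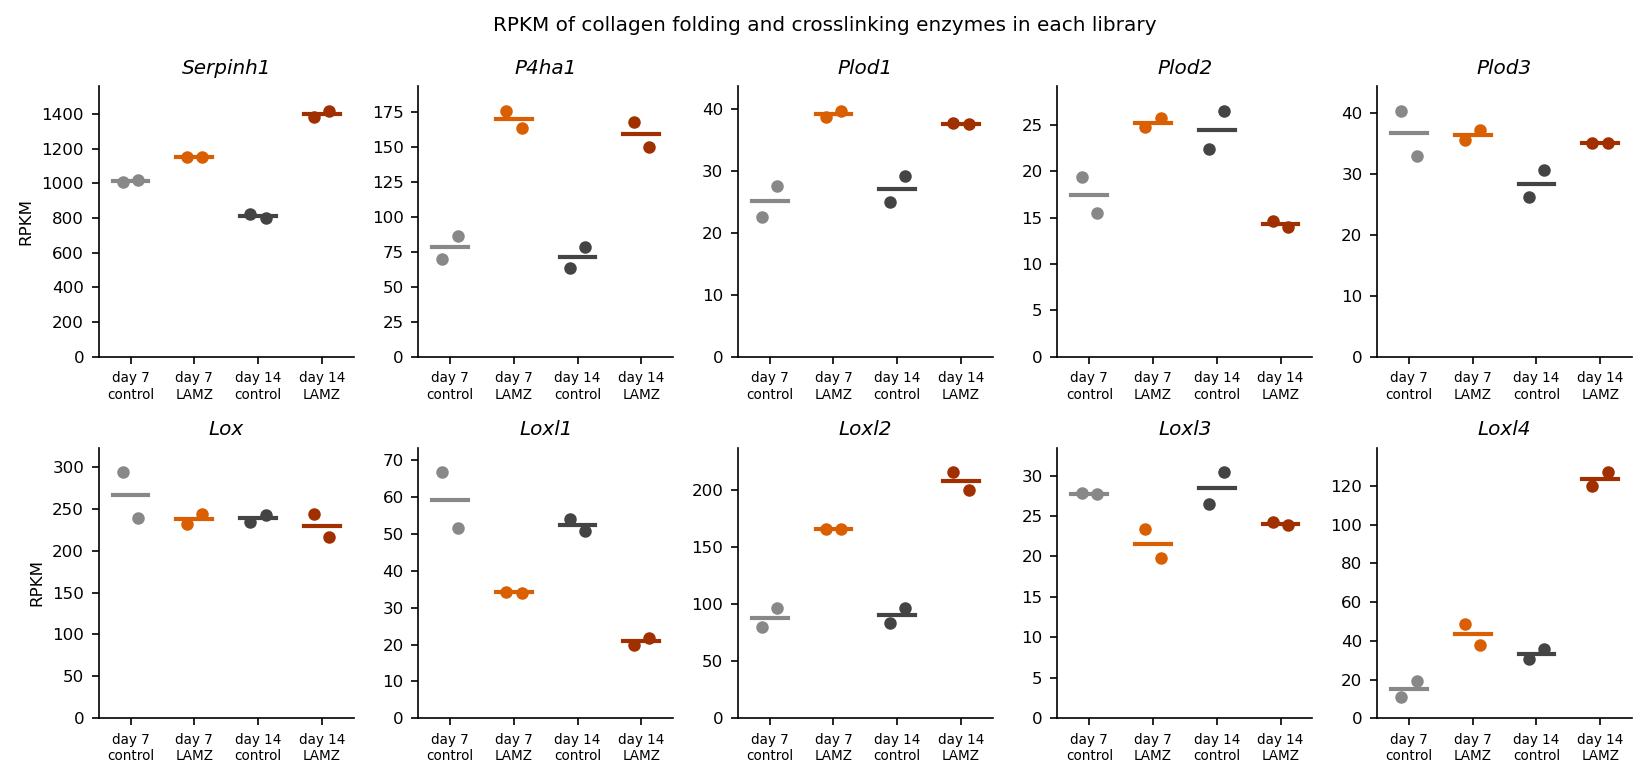
RPKM of each of the 10 genes (vertical axis, linear from 0, with its own range in each panel) in the 8 libraries. Points are libraries, 2 in each group, and the short lines are group means. Loxl2, Loxl4 and P4ha1 lie above the control with LAMZ on both days, Loxl1 lies below it, and Plod2 lies above it on day 7 and below it on day 14.

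P4ha1, the main catalytic subunit of collagen prolyl 4-hydroxylase, lies at chr10:59323296-59373304 on the plus strand (GRCm38). Its RPKM was 69.5 and 86.6 in the day 7 control libraries and 176 and 163 in the day 7 LAMZ libraries. On day 14 it was 63.7 and 78.7 in the control and 168 and 150.1 with LAMZ. The groups did not overlap on either day, and the LAMZ mean was 2.17 times the control mean on day 7 and 2.23 times on day 14. The log2 fold change was 1.12 (SE 0.16, adjusted p = 0.00385) on day 7 and 1.15 (SE 0.16, adjusted p = 0.00183) on day 14. P4ha1 kept its call in all 20 alternatives on both days. The other catalytic subunits differed from each other. P4ha2 also rose by 1.17 on day 7 (adjusted p = 0.00102) and 1.68 on day 14 (adjusted p = 8.94e-05) on the log2 scale. P4ha3 had a log2 fold change of −0.032 on day 7 (adjusted p = 0.923) and fell by 1.05 on day 14 (adjusted p = 0.00219). As a share of the summed RPKM of the 3 subunits, P4ha3 took 24.3% in the day 7 control, 12.3% in day 7 LAMZ, 28.3% in the day 14 control and 6.86% in day 14 LAMZ, and P4ha1 took the largest share in every group.

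Serpinh1 encodes HSP47, the collagen-specific chaperone, and lies at chr7:99345376-99353239 on the minus strand. It was by far the most abundant member, at rank 21 of the 12514 tested genes by mean RPKM. Its RPKM was 1005 and 1019 in the day 7 control, 1153 and 1149.8 in day 7 LAMZ, 825 and 803 in the day 14 control and 1382.5 and 1418 in day 14 LAMZ. The LAMZ libraries lay above the control libraries on both days, by a ratio of means of 1.14 on day 7 and 1.72 on day 14. The day 7 difference did not pass the test (log2 fold change 0.19, SE 0.12, adjusted p = 0.343) and turned to −0.12 when libraries were rescaled to the same sum and to −0.23 after quantile normalization. On day 14 Serpinh1 rose by 0.78 on the log2 scale (SE 0.12, adjusted p = 0.00266), a call that was lost after quantile normalization (0.27, adjusted p = 0.246) and without the filter on low values (adjusted p = 0.0617).

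Serpinh1 was also set against the mRNA of type I collagen, the main client of the chaperone. The ratio of its RPKM to the sum of Col1a1 and Col1a2 was 0.145 and 0.121 in the day 7 control, 0.129 and 0.133 in day 7 LAMZ, 0.0832 and 0.0859 in the day 14 control and 0.107 and 0.0986 in day 14 LAMZ. The ratio thus overlapped between the groups on day 7 and was higher with LAMZ on day 14. Over both days, the log2 ratio differed by 0.13 (two-sided exact permutation within days, p = 0.222). Relabelling libraries within days allows 36 arrangements, so the smallest p was 0.0556.

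Plod1, the lysyl hydroxylase that acts on lysines within the triple helix, lies at chr4:147909753-147936767 on the minus strand. The 4 control libraries had an RPKM of 22.7 and 27.6 (day 7) and 25.1 and 29.3 (day 14), and the LAMZ libraries had 38.8 and 39.8 (day 7) and 37.8 and 37.7 (day 14). All LAMZ libraries lay above all control libraries. Plod1 rose by 0.63 on the log2 scale on day 7 (SE 0.13, adjusted p = 0.0200) and by 0.46 on day 14 (SE 0.13, adjusted p = 0.0405). These calls were near the threshold. They were kept in 14 of 20 alternatives on day 7 and in 8 of 20 on day 14, and with libraries rescaled to the same sum the changes were 0.33 (adjusted p = 0.135) and 0.11 (adjusted p = 0.576). Without day 7 control replicate 1 or either day 7 LAMZ replicate, the adjusted p on day 7 was 0.0853 to 0.108. On day 14 the call was lost when any 1 library of that day or either day 7 LAMZ library was left out, with an adjusted p of 0.0577 to 0.168.

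Plod2, which hydroxylates the lysines of the telopeptides at the ends of the collagen molecule, was the only member called in opposite directions on day 7 and day 14. The gene lies at chr9:92542223-92608428 on the plus strand. Its RPKM on day 7 was 19.4 and 15.5 in the control and 24.7 and 25.7 with LAMZ. On day 14 it was 22.4 and 26.5 in the control and 14.6 and 14.0 with LAMZ. The groups did not overlap on either day, with LAMZ above the control on day 7 and below it on day 14. The log2 fold change was 0.52 on day 7 (SE 0.14, adjusted p = 0.0493) and −0.73 on day 14 (SE 0.14, adjusted p = 0.00840). The day 14 change minus the day 7 change was −1.25 (SE 0.20, adjusted p = 0.0452), the only such difference called among the 10 genes, beside 0.623% of all genes tested. Between the days, Plod2 fell by 0.78 on the log2 scale in the LAMZ libraries (adjusted p = 0.0111), and the control libraries had a difference of 0.47 (adjusted p = 0.101).

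The calls on Plod2 differed in how they held. The day 7 call remained in 7 of 20 alternatives and was lost when any library but day 7 control replicate 1 was left out, with an adjusted p of up to 0.194. The day 14 call was lost without day 14 control replicate 2 (adjusted p = 0.0556) or day 14 LAMZ replicate 2 (adjusted p = 0.0560) and held otherwise. The difference between the days was past the threshold in 6 of 19 alternatives, and leaving out any 1 of the 8 libraries ended the call with an adjusted p of 0.0636 to 0.181, while the difference itself stayed between −1.40 and −1.10.

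Plod3 encodes the lysyl hydroxylase that also carries glycosyltransferase activity, and lies at chr5:136987019-136996648 on the plus strand. Its RPKM was 40.3 and 32.8 in the day 7 control, 35.5 and 37.2 in day 7 LAMZ, 26.2 and 30.5 in the day 14 control and 34.9 and 35.1 in day 14 LAMZ. The groups overlapped on day 7, and LAMZ lay above the control on day 14, but neither change passed the test (adjusted p = 0.998 and 0.152). Some reads of Plod2 and Plod3 cannot be told from those of genes on the opposite strand, since no strand setting is stated and exons overlap with Gm38391 over 346 bases and with Znhit1 over 529 bases.

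Within the lysyl hydroxylase family, the group means of the summed RPKM were 79.1 in the day 7 control, 100.9 in day 7 LAMZ, 80.0 in the day 14 control and 87.0 in day 14 LAMZ. Plod2 held 22.0%, 25.0%, 30.6% and 16.4% of these sums in the same order, and Plod1 held 31.9%, 39.0%, 34.0% and 43.3%. The ratio of Plod2 to the sum of Plod1 and Plod3 was 0.307 and 0.256 in the day 7 control and 0.333 and 0.334 in day 7 LAMZ. On day 14 it was 0.437 and 0.443 in the control and 0.202 and 0.192 with LAMZ, so it was the highest of the 4 groups in the day 14 control and the lowest in day 14 LAMZ. The log2 ratio differed by 0.25 on day 7 and by −1.16 on day 14, and over both days by −0.46 (two-sided exact permutation p = 0.333). A day taken alone, with 2 libraries against 2, cannot give an exact p below 0.333.

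Loxl2, a lysyl oxidase of the scavenger receptor domain type that acts on type IV and fibrillar collagen, lies at chr14:69609068-69695834 on the plus strand. Its RPKM was 79.8 and 96.3 in the day 7 control and 166 in both day 7 LAMZ libraries. It was 83.4 and 96.9 in the day 14 control and 216 and 200.4 in day 14 LAMZ. Every LAMZ library lay above every control library, at 1.89 times the control mean on day 7 and 2.31 times on day 14. The log2 fold change was 0.91 (SE 0.14, adjusted p = 0.00484) on day 7 and 1.20 (SE 0.14, adjusted p = 0.000790) on day 14, and both calls were kept in all 20 alternatives. An antisense gene, Gm27177, shares 301 exonic bases with Loxl2, and reads of the pair cannot be told apart there.

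Loxl4, of the same domain type, lies at chr19:42593982-42612813 on the minus strand, and it had the largest change among the 10 genes on both days. Its RPKM was 11.1 and 19.4 in the day 7 control, 48.9 and 37.8 in day 7 LAMZ, 30.8 and 35.8 in the day 14 control and 119.98 and 127 in day 14 LAMZ. The lowest values were in the day 7 control and the highest in day 14 LAMZ, with no overlap between any of the 4 groups. The LAMZ mean was 2.84 times the control mean on day 7 (log2 fold change 1.48, SE 0.24, adjusted p = 0.00690) and 3.71 times on day 14 (1.86, SE 0.24, adjusted p = 0.00140). The day 14 call was kept in all 20 alternatives, and the day 7 call was lost without day 7 LAMZ replicate 1 (1.30, adjusted p = 0.0650) and with the 4 libraries of day 7 alone (adjusted p = 0.0639).

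Loxl1, the lysyl oxidase known for crosslinking elastin, lies at chr9:58287738-58313186 on the minus strand and was the only member called lower with LAMZ on both days. Its RPKM was 66.8 and 51.7 in the day 7 control and 34.2 and 34.1 in day 7 LAMZ. It was 54.1 and 50.9 in the day 14 control and 19.9 and 21.9 in day 14 LAMZ. The LAMZ libraries lay below all control libraries, at 0.576 of the control mean on day 7 and 0.398 on day 14. Loxl1 fell by 0.77 on the log2 scale on day 7 (SE 0.14, adjusted p = 0.0121) and by 1.29 on day 14 (SE 0.14, adjusted p = 0.000678). The day 14 call was kept in all 20 alternatives. The day 7 call was lost without day 7 LAMZ replicate 1 (adjusted p = 0.0828) or replicate 2 (adjusted p = 0.0733) and with the 4 libraries of that day alone (adjusted p = 0.0663).

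Lox, the founding lysyl oxidase that crosslinks fibrillar collagen and elastin, lies at chr18:52516067-52529867 on the minus strand and shares 30 exonic bases with the antisense gene AC161119.1. It was the most abundant member of its family. Its RPKM was 294 and 239 in the day 7 control, 231 and 243 in day 7 LAMZ, 234 and 243 in the day 14 control and 244 and 216 in day 14 LAMZ. The groups overlapped on both days, and the log2 fold change was −0.16 (SE 0.14, adjusted p = 0.507) on day 7 and −0.056 (SE 0.14, adjusted p = 0.803) on day 14. Lox was called lower on both days when libraries were rescaled to the same sum (−0.46 and −0.42) or quantile normalized (−0.41 and −0.46). With the same sum, the median of all genes was itself −0.31 on day 7 and −0.43 on day 14. Of the 3592 and 5796 genes then called, 8.69% and 8.16% were higher. After quantile normalization, the median of all genes was 0.014 on day 7 and 0.026 on day 14. Of the 1487 and 2674 genes called under that setting, 45.7% and 47.9% were higher. The day 14 value of Lox turned to 0.13 after median centring.

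Loxl3, the least abundant of the family by mean RPKM, lies at chr6:83034173-83052562 on the plus strand and shares 535 exonic bases with Htra2 on the opposite strand. Its RPKM was 27.8 and 27.7 in the day 7 control, 23.4 and 19.8 in day 7 LAMZ, 26.5 and 30.4 in the day 14 control and 24.2 and 23.9 in day 14 LAMZ. The LAMZ libraries lay below the control libraries on both days, but the change did not pass the test (log2 fold change −0.35, adjusted p = 0.109, and −0.23, adjusted p = 0.222). It was called lower on both days with libraries rescaled to the same sum (−0.64 and −0.58). Under that scaling, the median of all genes was −0.31 on day 7 and −0.43 on day 14. Of the 3592 and 5796 genes then called, 8.69% and 8.16% were higher.

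**Figure D2:**
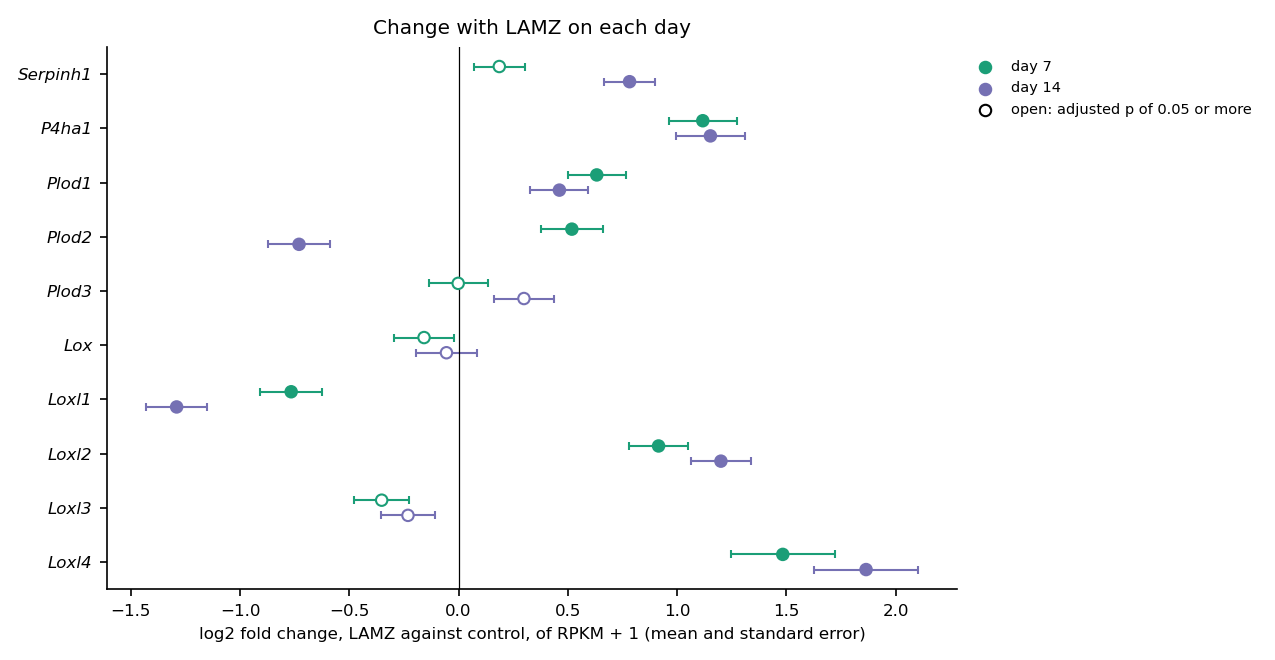
Log2 fold change of RPKM + 1 with LAMZ against control (horizontal axis) of each of the 10 genes on day 7 and day 14. Points are limma estimates from 2 against 2 libraries in one fit of 8, bars are standard errors, and open points did not pass an adjusted p of 0.05. Loxl4 lies farthest to the right at 1.48 and 1.86, Loxl1 farthest to the left at −0.77 and −1.29, and Plod2 changes sides.

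Since RPKM is scaled to gene length, levels can be set against each other within a library, and such a ratio does not depend on the scaling between libraries. The summed RPKM of the 5 lysyl oxidases was 457 ± 32.1 in the day 7 control, 503 ± 2.04 in day 7 LAMZ, 443 ± 19.7 in the day 14 control and 606 ± 24.5 in day 14 LAMZ (mean ± SD, n = 2). Lox took 58.2%, 47.2%, 53.9% and 37.9% of this sum in the same order. The share of Loxl2 was 19.4% and 20.3% in the day 7 and day 14 control and 33.1% and 34.3% with LAMZ. The share of Loxl4 was 3.40% and 7.50% in the control and 8.62% and 20.4% with LAMZ, and that of Loxl1 was 12.9% and 11.9% in the control and 6.79% and 3.45% with LAMZ.

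The ratio of Lox to the sum of Loxl1, Loxl2, Loxl3 and Loxl4 was 1.58 and 1.23 in the day 7 control, 0.849 and 0.944 in day 7 LAMZ, 1.20 and 1.14 in the day 14 control and 0.643 and 0.578 in day 14 LAMZ. It lay above 1 in all 4 control libraries and below 1 in all 4 LAMZ libraries. The log2 ratio differed by −0.64 on day 7, by −0.94 on day 14 and by −0.79 over both days. The two-sided exact permutation p was 0.0556, which is the smallest that the design allows and does not reach the threshold, and it was 0.167 after Benjamini-Hochberg adjustment over the 3 ratios compared. For the ratios with Plod2 and with Serpinh1, the adjusted value was 0.333.

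**Figure D3:**
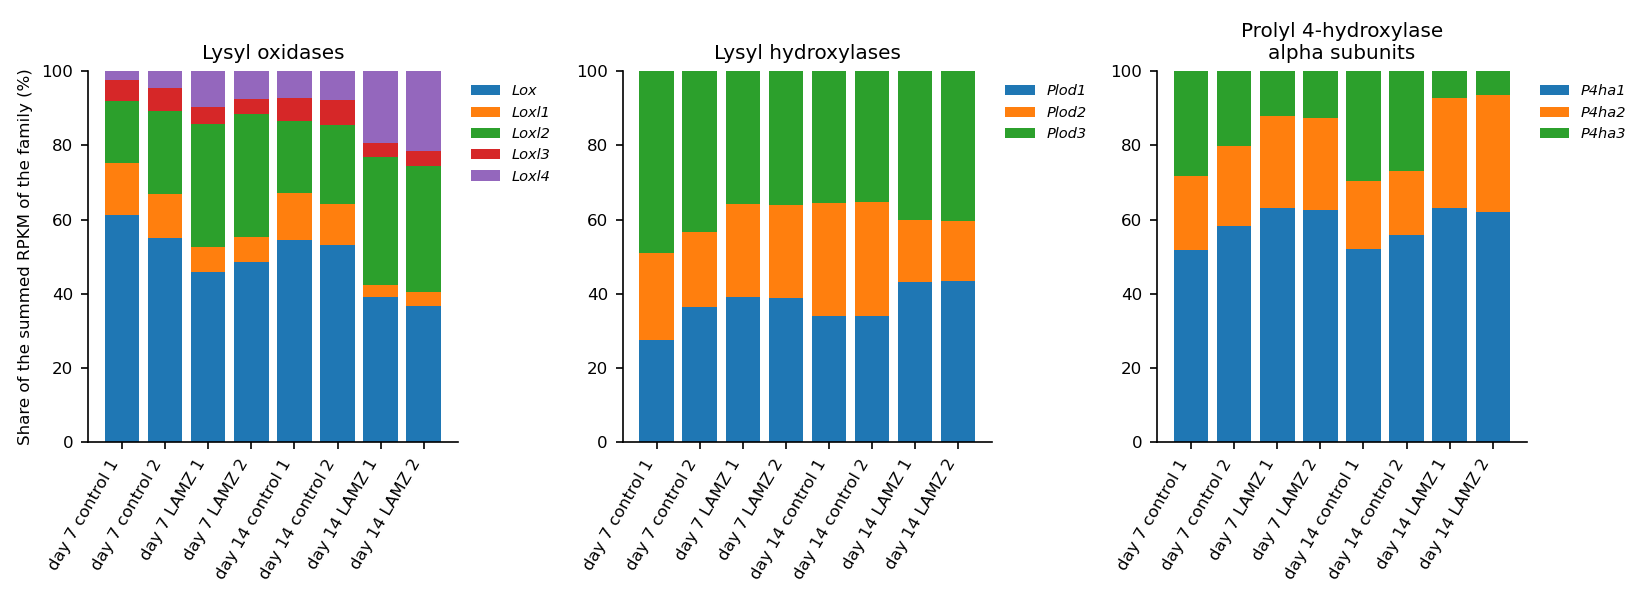
Share (%) of each gene in the summed RPKM of its family, in each of the 8 libraries (horizontal axis), for the lysyl oxidases, the lysyl hydroxylases and the alpha subunits of prolyl 4-hydroxylase. Each bar is 1 library and adds up to the whole family. Lox falls from a mean of 58.2% to 47.2% of its family on day 7 and from 53.9% to 37.9% on day 14.

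Between day 7 and day 14 in the control, Loxl4 was the only member called, and it was higher on day 14 (log2 fold change 1.12, SE 0.24, adjusted p = 0.0427), beside 2.46% higher and 2.40% lower among all genes. This call rested on the libraries used: it was kept in 7 of 19 alternatives, and among the fits that left out 1 library it was kept only without day 7 control replicate 2, while without day 7 control replicate 1 the change was 0.75 (adjusted p = 0.116). In the LAMZ libraries, Loxl4 rose by 1.5 between the days (SE 0.24, adjusted p = 0.00691), and Loxl1 fell by 0.69 (SE 0.14, adjusted p = 0.0174) along with Plod2. Among all genes, 5.10% were higher and 9.26% were lower in that comparison. The time changes share their libraries with the LAMZ comparisons above. All 3 calls were lost without day 7 LAMZ replicate 2 or day 14 LAMZ replicate 2, and without replicate 1 of either group only Loxl4 was called. For Loxl1, Loxl4 and Serpinh1, the difference of the LAMZ change between the days did not pass its test (adjusted p = 0.252, 0.614 and 0.148).

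The other genes of collagen hydroxylation and folding numbered 16, of which 15 were tested. On day 7, 7 were higher and none was lower with LAMZ, and on day 14, 8 were higher and 2 were lower. Of all genes tested, 4.35% were higher and 8.49% lower on day 7, and 6.96% higher and 16.0% lower on day 14. The 4 most abundant were P4hb, the beta subunit of prolyl 4-hydroxylase, Fkbp10, a peptidyl prolyl isomerase that works with HSP47, Crtap, a part of the prolyl 3-hydroxylase complex, and P3h4, a partner of the lysyl hydroxylases. P4hb had an RPKM of 394 and 434 in the day 7 control and 614 and 606 in day 7 LAMZ, and rose on the log2 scale by 0.56 on day 7 (adjusted p = 0.0320) and 0.91 on day 14 (adjusted p = 0.00263). Fkbp10 had an RPKM of 141 and 139 in the day 14 control and 274 and 273 in day 14 LAMZ, and rose by 0.45 on day 7 (adjusted p = 0.0348) and 0.96 on day 14 (adjusted p = 0.000851). Crtap had log2 fold changes of 0.30 and 0.34 and did not pass the test on either day (adjusted p = 0.188 and 0.102). P3h4 had a change of 0.37 on day 7 (adjusted p = 0.0756) and rose by 0.74 on day 14 (adjusted p = 0.00324). The median of the list was 0.37 on day 7 and 0.51 on day 14. With libraries rescaled to the same sum, the median was 0.064 and 0.15. The calls were then 3 higher and 1 lower on day 7 and 7 higher and 3 lower on day 14. Under that scaling, 3592 of all genes were called on day 7 (8.69% of them higher) and 5796 on day 14 (8.16% of them higher).

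The general chaperones of the endoplasmic reticulum fold many secreted proteins. None of the 7 passed the test on day 7, beside 4.35% higher and 8.49% lower among all genes tested. All 7 fold changes of that day were above 0 (median 0.27), but with libraries rescaled to the same sum only 1 was (median −0.035). After quantile normalization 6 were. On day 14, 5 were higher and none was lower, beside 6.96% higher and 16.0% lower among all genes tested. Hspa5, which encodes the chaperone BiP, had an RPKM of 104 and 96.7 in the day 7 control, 114 and 118 in day 7 LAMZ, 90.9 and 103 in the day 14 control and 346 and 263 in day 14 LAMZ. It was high in the day 14 LAMZ libraries alone, with a log2 fold change of 0.21 on day 7 (adjusted p = 0.428) and 1.63 on day 14 (adjusted p = 0.000307). The difference between the days was 1.43 (SE 0.21, adjusted p = 0.0369), and it passed the test for Hspa5 alone of the 7 (adjusted p from 0.145 to 0.923 for the others). Calr, which encodes the lectin chaperone calreticulin, rose by 0.77 on day 14 (adjusted p = 0.00656) and Hsp90b1 by 0.67 (adjusted p = 0.0442), while Pdia3, a disulfide isomerase, had a change of 0.40 (adjusted p = 0.122). The count of higher genes on day 14 was 4 to 7 over the other scalings.

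Among the enzymes that trim procollagen, 7 of 8 were tested, and they went both ways: 1 was higher and 2 were lower on day 7, and 2 were higher and 3 were lower on day 14. Among all genes tested, the shares higher and lower were 4.35% and 8.49% on day 7 and 6.96% and 16.0% on day 14. Pcolce, an enhancer of the C-proteinase, had an RPKM of 222 and 208 in the day 7 control and 163 and 165 in day 7 LAMZ (log2 fold change −0.39, adjusted p = 0.0568), and fell by 0.60 on day 14 (adjusted p = 0.00685). Bmp1, the C-proteinase, which also activates the lysyl oxidase proenzyme, had changes of −0.39 and 0.11 (adjusted p = 0.0963 and 0.598). Of the 3 other crosslinking enzymes, none passed on day 7 and 2 were lower on day 14, when 16.0% of all genes were. Pxdn, the peroxidasin that forms sulfilimine bonds in type IV collagen, fell by 0.89 on day 14 (adjusted p = 0.00314), and F13a1, the transglutaminase factor XIII, fell by 3.12 (adjusted p = 0.000290). F13a1 is also expressed in macrophages, and its RPKM in the day 14 control was 25.0 and 16.8, against 1.48 and 1.46 with LAMZ.

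The substrates and partners of the lysyl oxidases numbered 11. On day 7, 1 was higher and 3 were lower, and on day 14, 5 were higher and 4 were lower. The shares of all genes were 4.35% higher and 8.49% lower on day 7 and 6.96% higher and 16.0% lower on day 14. Col1a1, the main chain of bone collagen, had an RPKM of 4354 and 5451 in the day 7 control and 6252 and 6049.9 in day 7 LAMZ, and 6658 and 6220.4 in the day 14 control and 8936 and 9964 in day 14 LAMZ. Its log2 fold change was 0.34 on day 7 (adjusted p = 0.230) and 0.55 on day 14 (adjusted p = 0.0460), and that of Col1a2 was −0.061 (adjusted p = 0.824) and 0.39 (adjusted p = 0.0860). Fn1, which encodes fibronectin, rose by 1.03 on day 14 (adjusted p = 0.00185) and had a change of −0.00013 on day 7 (adjusted p = 1). Col3a1 fell by 0.58 on day 14 (adjusted p = 0.0263). The 4 elastic fiber genes of the list (Fbn1, Fbln5, Eln and Efemp2) were singled out after their values were seen. Fbn1 fell by 1.96 on day 7 (adjusted p = 8.97e-05) and 2.6 on day 14 (adjusted p = 9.97e-06), Fbln5 fell by 0.87 (adjusted p = 0.0110) and 0.89 (adjusted p = 0.00570), and Eln had a change of −0.40 on day 7 (adjusted p = 0.206) and fell by 0.87 on day 14 (adjusted p = 0.0122). Efemp2 fell by 0.57 on day 7 (adjusted p = 0.0211) and had a change of −0.26 on day 14 (adjusted p = 0.162). The rest of the list, also named after the values were seen, went the other way. Col5a2 rose by 0.47 on day 7 (adjusted p = 0.0388) and 0.45 on day 14 (adjusted p = 0.0296). Col5a1 had a change of 0.31 on day 7 (adjusted p = 0.146) and rose by 1.06 on day 14 (adjusted p = 0.000951). Postn had a change of 0.39 on day 7 (adjusted p = 0.0603) and rose by 0.81 on day 14 (adjusted p = 0.00194). With quantile normalization, the list had 0 higher and 5 lower genes on day 7 and 3 higher and 4 lower on day 14. Its day 14 median turned from 0.39 to −0.22. Under that setting, 1487 of all genes were called on day 7 (45.7% of them higher) and 2674 on day 14 (47.9% of them higher).

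Of 10 hypoxia-responsive genes listed, 9 were matched by symbol. On day 7, 8 were higher with LAMZ and none was lower, and on day 14, 5 were higher and none was lower, beside 4.35% and 6.96% of all genes higher on the same days and 8.49% and 16.0% lower. Ldha, which makes lactate, had an RPKM of 216 and 235 in the day 7 control and 348 and 376 in day 7 LAMZ, and its change was 0.68 on day 7 (adjusted p = 0.0183) and 0.13 on day 14 (adjusted p = 0.557). The glycolytic genes Pgk1 and Aldoa rose on both days, Pgk1 by 0.84 and 0.38 (adjusted p = 0.00306 and 0.0438) and Aldoa by 0.53 and 0.43 (adjusted p = 0.0177 and 0.0255). Bnip3, which acts in the removal of mitochondria, rose by 1.58 on day 7 (adjusted p = 0.000248) and had a change of 0.23 on day 14 (adjusted p = 0.208), and the difference between the days was −1.35 (SE 0.17, adjusted p = 0.0287). The counts of higher genes were 6 to 8 on day 7 and 2 to 7 on day 14 over the other scalings. Of the targets of the hypoxia-inducible factor named above, P4ha1, P4ha2 and Loxl2 were called higher on both days. Lox was called on neither day (−0.16 and −0.056), and Plod2 was higher on day 7 (0.52) and lower on day 14 (−0.73). Any link between these changes and the hypoxia-responsive list was not tested.

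**Figure D4:**
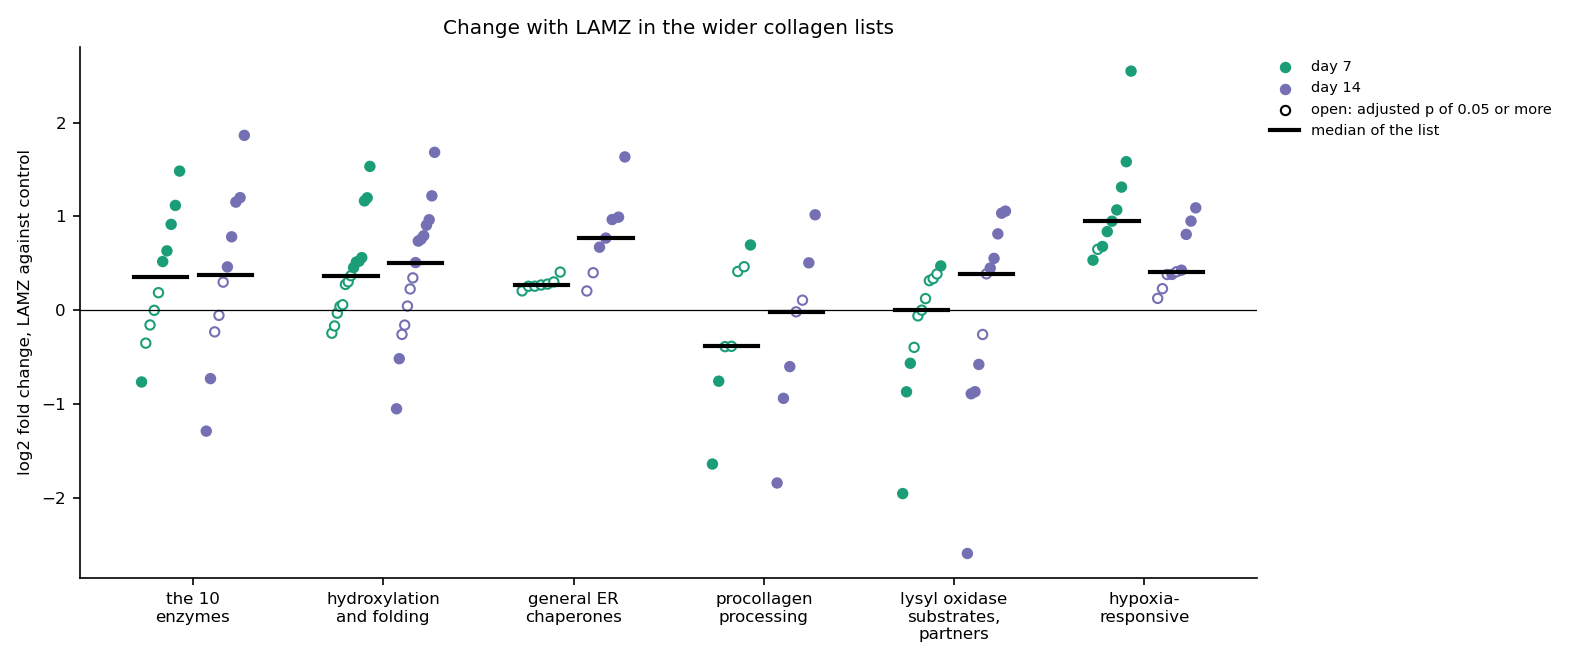
Log2 fold change of RPKM + 1 with LAMZ against control (vertical axis) of each tested gene in the 10 enzymes and 5 wider lists (horizontal axis), on day 7 and day 14. Each point is 1 gene, open points did not pass an adjusted p of 0.05, and black lines are medians. The chaperones lie at a median of 0.27 on day 7 and 0.77 on day 14, and the hypoxia-responsive genes at 0.95 and 0.41.

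Promoter sequences (250 bases before the transcript start, from RefSeq on GRCm38.p6) were matched for 5 of the 10 genes, namely Plod1, Plod3, Serpinh1, P4ha1 and Loxl4. They are printed for the 4 of these that were higher with LAMZ on at least 1 day. Capitals mark the core of the hypoxia response element, ACGTG or GCGTG, on either strand, so that CACGT and CACGC are the same letters read from the other strand. The windows are chr10:59323046-59323295 (P4ha1, plus strand), chr19:42612807-42613056 (Loxl4, minus strand), chr4:147936777-147937026 (Plod1, minus strand) and chr7:99353240-99353489 (Serpinh1, minus strand), each written 5′ to 3′ in the direction of the gene.
P4ha1: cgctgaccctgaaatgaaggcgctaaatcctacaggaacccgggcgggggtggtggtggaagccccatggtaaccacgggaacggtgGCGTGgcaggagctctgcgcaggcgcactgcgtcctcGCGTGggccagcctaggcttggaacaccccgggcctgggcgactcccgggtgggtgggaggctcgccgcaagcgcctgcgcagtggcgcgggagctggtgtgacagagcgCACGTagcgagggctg
Loxl4: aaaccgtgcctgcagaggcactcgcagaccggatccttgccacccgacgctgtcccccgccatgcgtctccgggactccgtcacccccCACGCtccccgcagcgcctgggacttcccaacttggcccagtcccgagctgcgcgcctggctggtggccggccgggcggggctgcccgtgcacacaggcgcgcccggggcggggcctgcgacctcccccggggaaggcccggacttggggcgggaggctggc
Plod1: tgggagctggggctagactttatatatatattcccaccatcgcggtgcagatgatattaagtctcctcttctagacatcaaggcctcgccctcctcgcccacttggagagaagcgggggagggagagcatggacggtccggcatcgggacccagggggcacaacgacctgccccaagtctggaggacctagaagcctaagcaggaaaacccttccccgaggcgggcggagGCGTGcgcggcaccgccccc
Serpinh1: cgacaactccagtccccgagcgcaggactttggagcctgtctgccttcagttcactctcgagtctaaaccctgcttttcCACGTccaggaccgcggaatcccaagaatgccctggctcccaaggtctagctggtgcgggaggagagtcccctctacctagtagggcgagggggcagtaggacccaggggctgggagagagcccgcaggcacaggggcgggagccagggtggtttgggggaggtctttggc

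All 5 windows held the core: P4ha1 held it 3 times, Loxl4, Plod1 and Serpinh1 held it 1 time each, and Plod3, which did not pass the test on either day, held it 4 times. Among all 32851 promoter windows of this length, 38.6% held it at least 1 time and 16.7% at least 2 times. The 5 windows were 55.6% to 76.0% G or C, and the shares over all windows were not matched for this. The letters are short, and a match is not a site shown to be bound. CCACG, which can overlap ACGTG or GCGTG, was found 3 times in P4ha1 and 1 time each in Loxl4 and Serpinh1 (28.3% of all windows held it). CCAAT was found in Plod3 alone (33.8% of all windows), and TATAAA in Plod1 alone (12.4% of all windows), with both strands searched for each.

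The genes whose levels ran most like those of Lox, Plod2 and Serpinh1 were taken by Pearson's r of log2(RPKM + 1) over the 8 libraries, which share 4 groups. For Lox these included Gemin7 (r = 0.988), Fbxo42, Tmem129 and Rbbp5. For Plod2 they were Gprasp2 (r = 0.967), Setd3, Sorbs2os, Slc35a3 and Ufl1. For Serpinh1 they were Ftsj1 (r = 0.987), Mtbp, Rplp1, Garem1 and Rplp0. With 8 libraries and 12514 genes these are a description only.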

How the data were processed

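RNA sequencing of 8 libraries from mouse osteoblast progenitors was used, with 2 libraries in each of 4 groups taken from the sample labels. The value column of day 7 LAMZ replicate 1 is headed D7_V1_Rep1, and its sample was taken from the record of which file belongs to which sample. The authors acquired the data on an Ion Proton and deposited RPKM values made with CLC Genomics Workbench (version not given in the sources used here), which are scaled within each library. The submitters' processing notes name mm10. Of 51826 entries in each file, 4 with symbols turned into dates were dropped. Positions, exon lengths and overlapping genes were taken from GENCODE M21 (GRCm38). The number of mapped reads was estimated as the one at which low values become whole reads (within 0.05 reads, for values up to 8 reads), which held for 94.2% to 96.4% of 899 to 1547 values a library. The reads of Lox and Plod2 did not come out whole in all 8 libraries.

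A gene was tested if 2 or more libraries had an RPKM of 1 or more, which left 12514. One model of the 4 groups, with 4 residual degrees of freedom, was fitted to log2(RPKM + 1) using limma 3.58.1 under R 4.3.3 with a mean-variance trend, followed by Benjamini-Hochberg adjustment. The scripts were tested on simulated data. Ratios were compared by exact permutation within days. Named genes were all 10 members, the 2 to 4 genes of highest mean RPKM in each list and the 5 genes most like Lox, Plod2 and Serpinh1, of which 1 is not reported here. Fbn1, Fbln5, Eln, Efemp2, Col5a1, Col5a2 and Postn were added after their values were seen. The members and lists were chosen with earlier results of these data known. Osteoblast, macrophage, adipocyte, endothelial and skeletal muscle markers were also fixed as lists. Alternatives were pseudocounts, filters, scalings, replicate blocks, the trend, single days and leaving out each library. Same-numbered libraries deviated with a correlation of −0.0166 on day 7 and 0.0158 on day 14, so the numbers were not taken as pairs.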

Additional observations from a re-analysis of the deposited data

Results flagged for a closer look

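The 3 genes below were noted because the test of the difference between the days passed the threshold, that is, the LAMZ change on day 14 minus that on day 7. The difference was −1.25 for Plod2, which was higher with LAMZ on day 7 and lower on day 14. It was 1.43 for Hspa5, which was higher with LAMZ on day 14, and −1.35 for Bnip3, which was higher with LAMZ on day 7. These values are on the log2(RPKM + 1) scale, and 78 of the 12514 genes tested passed this test. Groups of 2 libraries were too small to look for libraries that stand apart.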

How the results depend on the processing

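The calls of Loxl2 and P4ha1 on both days and of Loxl1 and Loxl4 on day 14 were kept in all 20 alternatives, and the other members' calls were lost in at least 1. Calls over all 12514 genes tested changed as well. On day 7 they numbered 1607, against 624 with the 4 libraries of that day alone. They numbered 1376 with a replicate block over the 4 groups and 984 with one inside each day. On day 14 2878 genes were called, for LAMZ between the days 1797 and for the difference between the days 78. For the control between the days 608 were called, against 1135 with the same sum, 784 with quantile normalization, 709 with median centring and 747 with the protein-coding sum. Totals are not given for the other settings, so fewer members there cannot be told from fewer calls in general. The number of members called on day 7 was 6, and it was 2 with the 4 libraries of that day alone and 2 to 5 when 1 library was left out, with the lowest counts without day 7 LAMZ replicate 1 (2) and replicate 2 (3). On day 14 it was 7, and 5 to 7 when 1 library was left out. For the control between the days, 1 member was called, against 0 with a pseudocount of 0.1, without the filter and without the mean-variance trend, 2 with the same sum, quantile normalization, median centring and the same sum over protein-coding genes (chosen after seeing the data), and 0 to 1 when 1 library was left out. For LAMZ between the days, 3 members were called, and 0 to 3 when 1 library was left out. For the difference between the days, 1 member was called, against 0 with a pseudocount of 0.1, without the filter and without the trend, and 0 to 0 when 1 library was left out. The replicate numbers did not pair the samples. With a replicate block over the 4 groups or inside each day, 0 members were called for the control between the days and for the difference between the days, and with either replicate block 4 to 5 were called on day 7 and 6 to 7 on day 14. Under a replicate block, the exact p of the ratio of Lox to the other lysyl oxidases was 0.125, which is the smallest that the block allows. The sign turned for Serpinh1 on day 7 with the same sum (−0.12) and quantile normalization (−0.23), for Plod3 on day 7 with quantile normalization (0.029), median centring (0.11), and when 1 day 7 library was left out (from −0.15 without control replicate 2 to 0.14 without control replicate 1, and 0.030 without LAMZ replicate 1), for Plod3 on day 14 with the same sum (−0.054), and for Lox on day 14 with median centring (0.13) and when 1 day 14 LAMZ library was left out (from −0.14 without replicate 1 to 0.033 without replicate 2). None of these passed the test on that day as reported, and the cause was not tested. When a library was left out, its lone partner was assumed to vary like the other groups. The differences of the 3 log2 ratios over both days kept their sign in every alternative run. For Plod2 this value averages opposite changes, 0.25 on day 7 and −1.16 on day 14. For Serpinh1 the changes were −0.018 and 0.28. Depth limits members little, but with 2 libraries a group the spread is known from 4 residual degrees of freedom.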

Other observations

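Of the other marker lists, 4 of 6 osteoblast markers were higher with LAMZ on each day and none was lower, and all 10 macrophage markers were lower on both days. Among all genes tested, 4.35% were higher and 8.49% lower on day 7, and 6.96% higher and 16.0% lower on day 14. Of the 4 adipocyte markers, 3 were tested, of which 1 was lower on day 7 and 3 were lower on day 14. Their summed RPKM was 41.5 and 91.2 in the day 14 control and 4.48 and 5.16 in day 14 LAMZ, so the control libraries of that day differed from each other. None of the 4 endothelial markers passed the filter, and their summed RPKM was 0.38 to 1.20. Of the 4 skeletal muscle markers, 1 was tested, Acta1, which was higher on day 14 (log2 fold change 3.26). The summed RPKM of the muscle markers was 23.1 and 18.9 in day 14 LAMZ and 1.33 to 4.96 in the other libraries. In day 14 LAMZ, Acta1 alone had 22.8 and 18.5, and Myog, Myh3 and Tnnt2 were at 0.274 or less in every library.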
